A study of Mus musculus with 18 samples.

Results

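The midbrain and isthmus transcription factors En1, En2, Pax2, Pax5, Pax8, Otx1, Otx2 and Gbx2 were followed through dopaminergic differentiation of mouse embryonic stem (ES) cells with and without knockdown of the purine salvage enzyme hypoxanthine phosphoribosyltransferase (HPRT). All 8 genes were present among the 30869 gene symbols of the array, through 12 probes, and each was found by its gene symbol in the array's probe annotation. These 8 genes were chosen from known differences between knockdown and control cells at the spherical neural mass (SNM) and neuronal stages, so those differences are given as a description, without p-values. The ES-stage comparison and the steps from stage to stage did not enter that choice and were tested, although they share arrays with the comparisons that did.

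Cells of the ESD3 line, also called D3 and derived from the mouse strain 129s2/SvPas, were infected with a virus carrying a short hairpin RNA against HPRT (knockdown) or against luciferase (control), so that the control cells too carried a virus and a hairpin. Both were kept as ES cells on mouse embryo fibroblast feeders with LIF and bFGF, and were then taken through the SNM stage, at which the cells grow as floating balls of neural precursors, to a final neuronal stage under a dopaminergic protocol that uses Shh and FGF8. The 3 stages and 2 hairpins give 6 conditions: control and knockdown ES, control and knockdown SNM, and control and knockdown neuronal cells. RNA from replicate cultures was pooled within each condition, and each pool was measured on 3 Illumina bead arrays, 18 in all. The 3 arrays of a condition are therefore repeat measurements of 1 pool, and every error and p-value below covers the spread between arrays, not between cultures; the number of arrays limits the precision.

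The isthmus is the constriction between the embryonic midbrain and hindbrain, and works as an organiser: cells there secrete Fgf8 and Wnt1, which pattern the tissue on both sides. Its position is set where Otx2, the homeodomain factor of the forebrain and midbrain, meets Gbx2, the homeodomain factor of the anterior hindbrain, each of which represses the other. Pax2, Pax5 and Pax8, paired box factors, and the engrailed homeodomain repressors En1 and En2 are switched on across this border, and En1 and En2 are later needed for the survival of midbrain dopaminergic neurons. Otx1 accompanies Otx2 in the forebrain and midbrain. Otx2 and Gbx2 are also known in early pluripotent cells, before any brain has formed.

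En1 and Gbx2, on chromosome 1 in mouse, both had a lower signal in knockdown than in control cells at the SNM stage and both had a higher signal in knockdown neuronal than in knockdown SNM cells, and their promoter windows are shown for that reason. The sequences are from RefSeq on the build GRCm38.p6, read 5′ to 3′ on the strand of the gene, from 250 bases before the start of transcription to 50 after it, which makes 300 bases. Capitals mark matches on either strand to 4 motifs that were chosen after the windows had been read: TAATTA, the core bound by engrailed and Gbx class homeodomains, TAATCC, the core bound by Otx class homeodomains, the GC box GGGCGG and the E-box CACGTG; none of the marked matches overlaps another. The En1 window is chr1:120602237-120602536 on the forward strand and the Gbx2 window is chr1:89931127-89931426 on the reverse strand.
En1: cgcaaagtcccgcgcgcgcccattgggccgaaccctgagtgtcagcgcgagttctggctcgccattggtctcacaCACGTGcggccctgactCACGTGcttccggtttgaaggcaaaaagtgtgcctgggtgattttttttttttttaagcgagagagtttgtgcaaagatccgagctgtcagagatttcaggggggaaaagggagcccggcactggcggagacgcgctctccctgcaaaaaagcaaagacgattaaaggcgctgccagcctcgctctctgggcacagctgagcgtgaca
Gbx2: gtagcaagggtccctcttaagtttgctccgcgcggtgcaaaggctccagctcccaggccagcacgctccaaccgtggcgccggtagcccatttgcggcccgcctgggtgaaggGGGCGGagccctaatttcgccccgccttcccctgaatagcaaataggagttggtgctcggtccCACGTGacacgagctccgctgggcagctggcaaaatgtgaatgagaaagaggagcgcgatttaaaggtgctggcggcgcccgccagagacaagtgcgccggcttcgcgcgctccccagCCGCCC
The E-box CACGTG occurred at 2 places in the En1 window, beginning at bases -175 and -158 from the start, and at 1 place in the Gbx2 window, beginning at base -74, whereas 7.15% of the 32851 promoter windows in the table hold it. The Gbx2 window held the GC box at 2 places, at -137 and at 45, against a share of 35.7% of all windows. Neither window held TAATTA, found in 5.29% of all windows, or TAATCC, found in 7.06%. The En1 window was 57% G and C with 23 CpG pairs and the Gbx2 window 64.7% with 27, against medians of 52.7% and 7 over all windows. A match is only a description of these letters. The table holds 1 window for Pax5, 1 for Pax8, 3 for Pax2 and 4 for Otx2; En2 and Otx1 are named only.

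Signals are given as normalized log2 signals, after a background correction and a quantile normalization that gave all arrays the same distribution. A probe counted as detected on an array when its detection p-value, the share of negative control beads at least as bright, was under 0.05. A gene was called between conditions when limma gave it an adjusted p under 0.05 and its signals differed at least 1.5-fold. Between 18827 and 22202 of the 45281 probes were detected on an array. The Hprt1 signal itself was 94.1%, 70.5% and 95.4% lower in knockdown than in control cells, in the order ES, SNM and neuronal cells. Pluripotency markers were highest in ES cells, with a summed linear signal of 24500 to 27310 on the ES arrays against 1062 to 4534 later. Of 8 neuronal markers, each read through its brightest probe, 6 were detected on all control neuronal arrays and 5 on all knockdown neuronal arrays. Snap25 and Nefl were detected on no array of any condition, and Tubb3 was detected on no knockdown neuronal array. In these bulk samples, fewer cells of a type and less RNA per cell cannot be told apart.

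En1, En2, Gbx2, Otx1, Otx2 and Pax8 were detected on all 3 arrays of at least 1 condition and could be tested, whereas Pax2 and Pax5 were detected on none of the 18 arrays. The lowest detection p-value over both Pax2 probes and the Pax5 probe was 0.0812, on a knockdown SNM array with the Pax5 probe, and their normalized log2 signals lay between 4.22 and 4.62 on all arrays. Each gene below is described through its brightest probe, and signals of different probes are not set against each other.

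**Figure D1:**
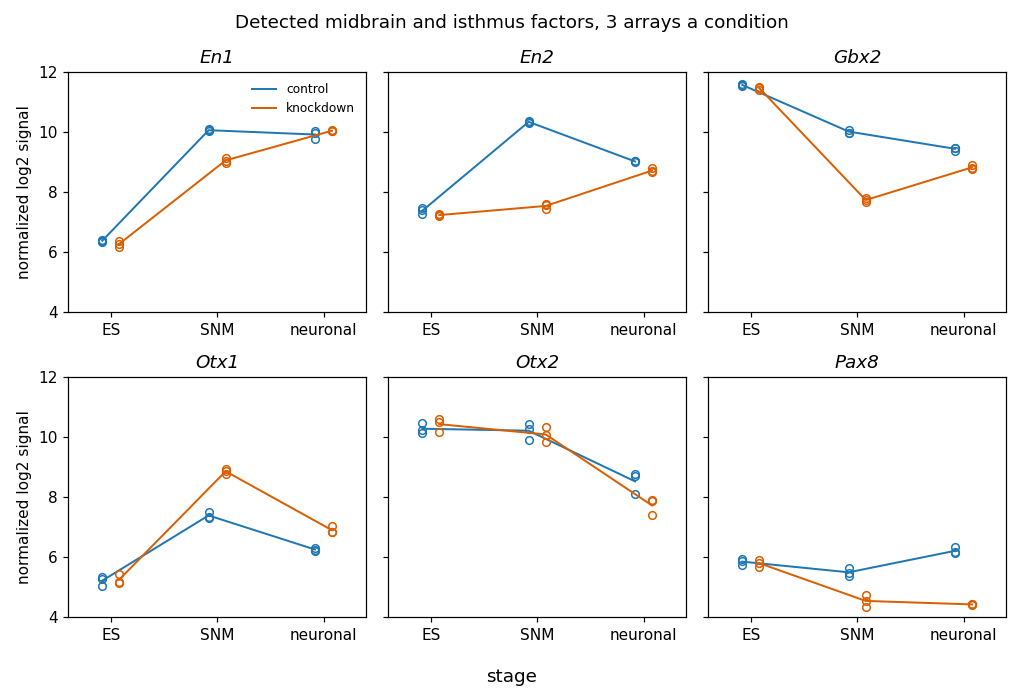
Normalized log2 signal (vertical axis) of the 6 detected factors at the ES, SNM and neuronal stages (horizontal axis); each circle is 1 array and lines join the means of 3 arrays, blue for control and orange for knockdown cells. En1, En2, Gbx2 and Pax8 lie lower in knockdown than in control cells at the SNM stage and Otx1 lies higher, and En1 and En2 lie close together again at the neuronal stage.

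En2, an engrailed repressor of the midbrain and cerebellum, showed the largest difference between knockdown and control cells among these genes. On the control arrays its signal was 7.27, 7.48 and 7.39 in ES cells, 10.30, 10.35 and 10.36 in SNM cells, and 9.02, 9.05 and 8.99 in neuronal cells. On the knockdown arrays it was 7.20, 7.24 and 7.26 in ES cells, 7.59, 7.58 and 7.44 in SNM cells, and 8.70, 8.79 and 8.65 in neuronal cells. The signal thus peaked at the SNM stage in control cells, while the knockdown SNM arrays overlapped the control ES arrays. At the SNM stage the difference, knockdown minus control, was -2.80 ± 0.06 (SE) on the log2 scale, 6.96-fold lower in knockdown cells, and at the neuronal stage it was -0.30 ± 0.06, below the 1.5-fold threshold. The step from ES to SNM raised En2 by 2.96 ± 0.06 in control cells (limma adjusted p = 4.12e-16), and in knockdown cells the same step gave 0.30 ± 0.06 (limma adjusted p = 0.000232), under 1.5-fold, but 0.68 and called without scaling between arrays. From SNM to neuronal stage En2 fell by 1.32 ± 0.06 in control cells (limma adjusted p = 2.36e-11) and rose by 1.18 ± 0.06 in knockdown cells (limma adjusted p = 9.16e-11).

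En1, the other engrailed gene and the earlier of the pair in the developing midbrain, rose in both kinds of cell. Its control signals were 6.37, 6.41 and 6.35 in ES cells, 10.05, 10.04 and 10.08 in SNM cells, and 10.02, 9.96 and 9.75 in neuronal cells. Its knockdown signals were 6.28, 6.15 and 6.38 in ES cells, 8.98, 9.04 and 9.14 in SNM cells, and 10.02, 10.06 and 10.05 in neuronal cells. Knockdown SNM cells stood alone between the ES arrays and the 3 highest conditions, and those 3 conditions, control SNM and both neuronal ones, overlapped their neighbours. The knockdown SNM signal was 2.01-fold lower than the control one, a log2 difference of -1.0 ± 0.07 (SE), whereas at the neuronal stage the difference was 0.13 ± 0.07. ES to SNM raised En1 by 3.68 ± 0.07 in control cells (limma adjusted p = 2.56e-16) and by 2.78 ± 0.07 in knockdown cells (limma adjusted p = 3.58e-15). The later step gave -0.14 ± 0.07 in control cells (limma adjusted p = 0.0924) and a rise of 0.99 ± 0.07 in knockdown cells (limma adjusted p = 6.08e-09).

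The second En1 probe, which unlike the brighter one carries a RefSeq accession in the array annotation, gave like differences. It was detected on 1 of 3 control ES arrays and on no knockdown ES array. Its knockdown minus control difference was -0.99 ± 0.13 (SE) in SNM cells and 0.21 ± 0.13 in neuronal cells, and it rose by 1.19 ± 0.13 from the knockdown SNM to the knockdown neuronal cells (limma adjusted p = 6.02e-07).

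Gbx2, the anterior hindbrain factor, started from its highest signal in ES cells and fell. On control arrays the signal was 11.54, 11.57 and 11.58 in ES cells, 9.98, 10.08 and 9.98 in SNM cells, and 9.46, 9.38 and 9.48 in neuronal cells. On knockdown arrays it was 11.40, 11.50 and 11.48 in ES cells, 7.74, 7.80 and 7.66 in SNM cells, and 8.77, 8.90 and 8.80 in neuronal cells. No condition overlapped its neighbour in the order of levels, which ran from knockdown SNM through knockdown neuronal, control neuronal, control SNM and knockdown ES to control ES. The difference between knockdown and control was -2.28 ± 0.06 (SE) at the SNM stage, 4.86-fold lower, and -0.62 ± 0.06 at the neuronal stage, 1.53-fold lower and just past the threshold. Gbx2 fell by 1.55 ± 0.06 from ES to SNM in control cells (limma adjusted p = 3.3e-13) and fell by 3.73 ± 0.06 in knockdown cells (limma adjusted p = 8.29e-18). From SNM to neuronal stage the control cells gave a further -0.57 ± 0.06 (limma adjusted p = 1.91e-07), 1.49-fold and just short of the threshold, while in knockdown cells Gbx2 rose by 1.09 ± 0.06 (limma adjusted p = 8.32e-11).

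Otx1, a forebrain and midbrain factor, was the only one of the 6 genes called higher in knockdown cells. Control arrays gave 5.36, 5.26 and 5.05 in ES cells, 7.31, 7.36 and 7.52 in SNM cells, and 6.33, 6.21 and 6.24 in neuronal cells. Knockdown arrays gave 5.46, 5.15 and 5.17 in ES cells, 8.94, 8.89 and 8.77 in SNM cells, and 6.84, 7.04 and 6.84 in neuronal cells. Apart from the 2 ES conditions, which overlapped, every condition stood clear of its neighbours, with SNM cells highest in both series. The knockdown signal was 2.77-fold higher at the SNM stage, a log2 difference of 1.47 ± 0.10 (SE), and 1.56-fold higher at the neuronal stage, a difference of 0.64 ± 0.10 that fell short of 1.5-fold without the second knockdown neuronal array (0.58). Otx1 rose from ES to SNM by 2.17 ± 0.10 in control cells (limma adjusted p = 5.3e-12) and by 3.60 ± 0.10 in knockdown cells (limma adjusted p = 6.32e-15). It then fell by 1.13 ± 0.10 in control cells (limma adjusted p = 4.56e-08) and in knockdown cells it fell by 1.96 ± 0.10 (limma adjusted p = 5.73e-11).

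Otx2, which marks the side of the isthmus towards the midbrain, did not follow Otx1. Its control signals were 10.47, 10.15 and 10.22 in ES cells, 9.92, 10.28 and 10.45 in SNM cells, and 8.11, 8.70 and 8.78 in neuronal cells. Its knockdown signals were 10.18, 10.52 and 10.60 in ES cells, 9.84, 10.09 and 10.35 in SNM cells, and 7.40, 7.92 and 7.86 in neuronal cells. The 4 ES and SNM conditions overlapped one another, and only the neuronal conditions stood apart, the knockdown one lowest. Knockdown and control differed by -0.12 ± 0.20 (SE) at the SNM stage and by -0.80 ± 0.20 at the neuronal stage, 1.74-fold lower. From ES to SNM the change was -0.066 ± 0.20 in control cells (limma adjusted p = 0.769) and -0.34 ± 0.20 in knockdown cells (limma adjusted p = 0.119). From SNM to neuronal stage Otx2 fell by 1.69 ± 0.20 in control cells (limma adjusted p = 1.74e-06) and fell by 2.36 ± 0.20 in knockdown cells (limma adjusted p = 3.35e-08).

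**Figure D2:**
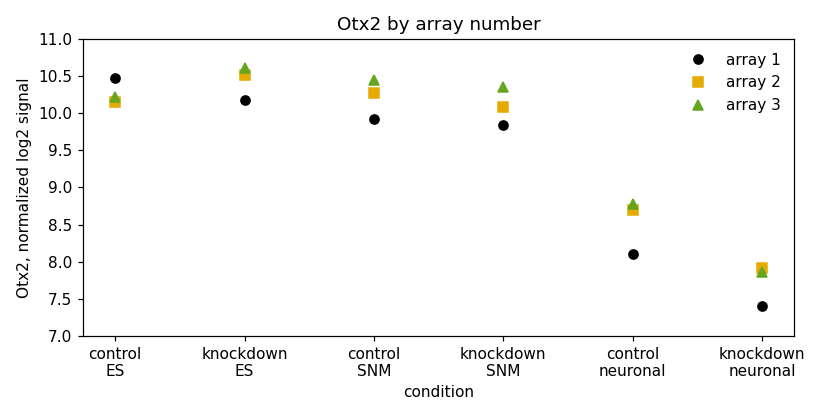
Normalized log2 signal of Otx2 (vertical axis) in the 6 conditions (horizontal axis), with the 3 arrays of each condition drawn by their number. The array numbered 1 is the lowest of its condition in every condition but control ES, where it is the highest at 10.47.

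The spread of Otx2 between arrays, from 0.17 to 0.37 (SD, n = 3), was wider than that of En2 or Gbx2 in every condition, and the array numbered 1 gave the lowest signal in all conditions but control ES. Taken within array numbers, the Otx2 difference at the SNM stage was -0.085, -0.19 and -0.10, which is narrower than the spread between the arrays of either condition. Whether arrays of the same number were processed together is not given in the labels.

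Pax8, the paired box factor of the isthmus that also serves the kidney, thyroid and inner ear, was dim throughout. Its control signals were 5.95, 5.86 and 5.76 in ES cells, 5.65, 5.47 and 5.38 in SNM cells, and 6.33, 6.15 and 6.16 in neuronal cells, all detected. Its knockdown signals were 5.92, 5.83 and 5.67 in ES cells, 4.74, 4.35 and 4.55 in SNM cells, and 4.44, 4.41 and 4.46 in neuronal cells. Of the knockdown arrays after the ES stage, only 1 of 3 SNM arrays and none of the 3 neuronal arrays detected it. The difference at the SNM stage was -0.95 ± 0.10 (SE), with 2 of the 3 knockdown signals not above background, so its size depends on the background level, and at the neuronal stage the knockdown signal was at least 2.78-fold lower, against the lowest signal that counted as detected. The step from ES to SNM gave -0.36 ± 0.10 in control cells (limma adjusted p = 0.00371), under 1.5-fold, and in knockdown cells the signal fell by 1.25 ± 0.10 (limma adjusted p = 5.02e-09), a call lost with quantile normalization without background correction (-0.50) and over the mean of probes (-0.46). Control cells then gained 0.72 ± 0.10 at the neuronal stage (limma adjusted p = 9.5e-06), which shrank to between 0.24 and 0.45 and was not called without background correction, with an offset of 50 or over the mean of probes. In knockdown cells this step was not tested, since neither condition was detected on all arrays. The other 2 Pax8 probes were detected on at most 1 array of any condition and gave no tested difference. Markers of kidney and thyroid, which also use Pax8, held a summed linear signal of 254.1 to 274.7 in knockdown SNM cells and of 167 to 217.8 in the other conditions, with Umod and Tg detected on no array. These sums include the background signal of undetected markers.

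**Figure D3:**
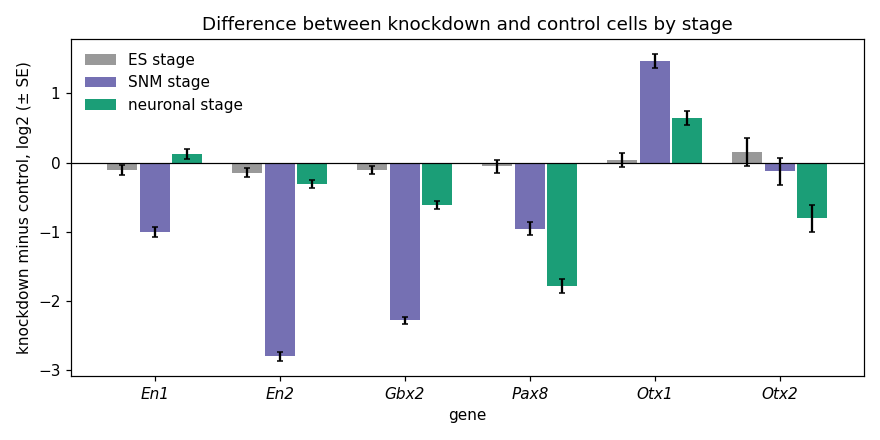
Knockdown minus control log2 signal (vertical axis) of the 6 detected factors (horizontal axis) at the ES, SNM and neuronal stages; bars are differences between means of 3 arrays and lines are ± 1 SE. The bars are near 0 at the ES stage, run from -2.80 for En2 to 1.47 for Otx1 in SNM cells, and lie furthest from 0 for Pax8 in neuronal cells, whose knockdown arrays did not detect it.

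In ES cells the hairpin against HPRT left these genes near their control levels. None of the 6 tested genes was called by limma, with 1 of them, En2, at an unadjusted p under 0.05, and the methods' t-test also called none. The differences, knockdown minus control, were -0.10 ± 0.07 (SE) for En1 (limma adjusted p = 0.395), -0.14 ± 0.06 for En2 (limma adjusted p = 0.143) and -0.11 ± 0.06 for Gbx2 (limma adjusted p = 0.253). They were 0.038 ± 0.10 for Otx1 (limma adjusted p = 0.86), 0.15 ± 0.20 for Otx2 (limma adjusted p = 0.689) and -0.053 ± 0.10 for Pax8 (limma adjusted p = 0.793). Over all tested probes of this comparison, 0.516% were called higher and 1.17% lower, so a count of none among 6 is near the background.

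At the SNM stage 4 of the 6 tested genes, En1, En2, Gbx2 and Pax8, were called lower in knockdown cells and 1, Otx1, was called higher. The background of this comparison was 8.9% of tested probes called lower and 11% called higher, and because the genes were chosen from this comparison nothing is read from their share. At the neuronal stage 3 were called lower, Gbx2, Otx2 and Pax8, and Otx1 was called higher, where 13.5% and 13.9% of tested probes were called lower and higher. Without background correction, or with an offset of 50, the SNM call of Pax8 and the neuronal calls of Otx1 and Gbx2 were lost, since the differences fell under 1.5-fold. The change of the difference between stages is made of these same differences and is likewise a description: it lay past the threshold for En1, En2, Gbx2, Otx1 and Pax8, both from ES to SNM and from SNM to neuronal stage, as for 21.3% and 28.6% of tested probes, and nothing is read from that share. The median difference over the 6 genes was -0.98 for SNM cells and -0.46 for neuronal cells, against -0.038 and 0.014 over all tested probes.

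Along the differentiation, control cells going from ES to SNM stage called En1, En2 and Otx1 higher and Gbx2 lower among 6 tested, where 23.7% of tested probes were called higher and 25.4% lower. Knockdown cells over the same step called En1 and Otx1 higher and Gbx2 and Pax8 lower among 6, with a background of 26.4% higher and 30.9% lower. Going on to the neuronal stage, control cells called Pax8 higher and En2, Otx1 and Otx2 lower among 6 (background 14.3% higher and 15.1% lower). Knockdown cells called En1, En2 and Gbx2 higher and Otx1 and Otx2 lower among the 5 tested (13.8% higher and 14.8% lower). En2 was thus called in opposite directions in the 2 kinds of cell over the later step, and Otx1 and Otx2 were called lower in both.

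Markers of several cell types also differed between knockdown and control cells. Skeletal muscle markers reached a summed linear signal of 57050 to 57880 on the control neuronal arrays against 255.6 to 357.2 on the knockdown ones, with all 8 markers detected in the former and Ckm, Myog and Myod1 on no array of the latter. Oligodendrocyte markers ran the other way, with 59450 to 64850 in knockdown neuronal cells, where all 8 were detected, and 1053 to 1126 in control neuronal cells, where 6 were detected on all arrays, while at the SNM stage the control cells were higher with 9409 to 10150 against 2657 to 3093. Neuronal markers summed to 6830 to 7384 in control and 1401 to 1575 in knockdown neuronal cells, with 6 and 5 of 8 detected on all arrays, but lay close together at the SNM stage, with 3887 to 4115 and 3776 to 3863. Astrocyte and radial glia markers were higher in knockdown cells at the SNM stage, with 11560 to 12080 against 6495 to 7434. Fibroblast and mesenchyme markers, which the feeder cells also carry, summed to 21960 to 25130 in control and 11500 to 14740 in knockdown neuronal cells. The part of these cell types in the differences of En1, En2, Gbx2, Otx1, Otx2 and Pax8 was not tested. Retina and pigment epithelium markers, for tissues that use Otx2, summed to between 161.9 and 219.1 in every condition, with Tyr detected on no array. Control neuronal cells, in which 6 of these 7 markers were undetected on every array, still summed to 161.9 to 164.3. Low sums like these thus include the background signal of undetected markers. Rax, which is also in the list of forebrain factors, was detected on all 3 arrays of knockdown SNM cells alone. B lymphocyte markers, for the cells best known for Pax5, summed to 284 to 416 in control and 170.6 to 203.1 in knockdown SNM cells, and to 232.8 to 326.3 and 153.7 to 188 in neuronal cells. Of the 7 markers on the array only Ebf1, a factor also found outside B cells, was detected on all 3 arrays of either control condition, and it was called lower in knockdown cells by both comparisons, with -1.92 ± 0.32 (SE) and -2.02 ± 0.32, whereas Cd79b was detected on no SNM or neuronal array. Inner ear markers, for a tissue that uses Pax2 and Pax8, summed to 1429 to 1604 in control and 565.2 to 596.8 in knockdown neuronal cells, with Tecta on no array of either.

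Several signals of the isthmic organiser and their feedback partners, though not Fgf8, were lower in knockdown cells at the SNM stage. This list and the other regional lists below were drawn up with earlier results of these data known. Their shares and medians are descriptions, and nothing is read from them. Of 18 listed genes 17 were on the array and 13 were tested, of which 7 were called and all 7 were lower, where 8.9% of all tested probes were called lower, with a median difference of -0.63 (-0.58 with bounds for undetected signals) against -0.038 over all tested probes. Sp8, a zinc finger factor of the isthmus and forebrain, differed by -2.21 ± 0.15 (SE), and Fgf17, an isthmic fibroblast growth factor, by -1.93 ± 0.13. Spry4, an inhibitor induced by these growth factors, and Fgf15 each differed by -1.33, with errors of 0.12 and 0.08. Fgf8 itself, named after its value was seen because it is an organiser signal, differed by only 0.11 ± 0.14 and was not called. Wnt1, the other organiser signal named above, was on the array but was not detected on all 3 arrays of either SNM condition. It was therefore not tested at this stage. At the neuronal stage 4 of 11 tested genes were called, all lower, against 13.5% of all tested probes: Sp8, Fgf17, Il17rd and Fgf15. In ES cells limma called none of 11 at 1.5-fold. Of the 11, 5 had an unadjusted p under 0.05, and these 5 also had a limma adjusted p under 0.05 but missed the fold threshold. The methods' t-test called none. ES to SNM moved Sp8 by 2.72 ± 0.15 in control cells, a called rise, and by 0.51 ± 0.15 in knockdown cells, under 1.5-fold.

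Forebrain factors lay on the side of Otx1. Of 12 tested at the SNM stage 7 were called higher in knockdown cells and 1 lower, where 11% and 8.9% of all tested probes were, with a median of 0.87 (0.67 with bounds) against -0.038 over all tested probes. Nkx2-1, a factor of the ventral forebrain, differed by 6.01 ± 0.06 (SE), from 4.70 in control SNM cells, where 1 of 3 arrays detected it, to 10.72 in knockdown SNM cells. Dlx1 and Dlx2, homeodomain factors of ventral forebrain neurons, differed by 2.96 ± 0.09 and 2.64 ± 0.12, and Fezf1, an anterior forebrain repressor, by 1.70 ± 0.09. At the neuronal stage 4 of 8 tested forebrain factors were called higher and 2 lower, where 13.9% and 13.5% of all tested probes were. Among hindbrain factors, 3 of 9 tested at the SNM stage were called, all lower in knockdown cells as Gbx2 was, against 8.9% of all tested probes: Egr2 with a difference of -1.41 ± 0.08 (SE), Irx2 with -1.38 ± 0.08 and Phox2a with -1.15 ± 0.16. At the neuronal stage 1 of 10 tested hindbrain factors was called higher, and 2, Hoxb3 and Phox2a, lower, which is near the 13.9% and 13.5% of all tested probes. In ES cells limma called 1 of 6 hindbrain factors, Hoxa2, at -0.60 ± 0.15 and detected on 1 of 3 knockdown arrays. That call was lost under most alternatives, among them both settings without background correction, no scaling, an offset of 50, a fit of the ES arrays alone, the methods' t-test and leaving out the first control or first knockdown ES array. Neither of the 2 forebrain factors tested in ES cells was called by limma, with 1 at an unadjusted p under 0.05, or by the methods' t-test.

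Other midbrain factors did not share 1 direction at the SNM stage, where 4 of 17 tested were called higher and 4 lower, against 11% and 8.9% of all tested probes. Among those higher in knockdown cells were Lmx1a with a difference of 2.42 ± 0.10 (SE), Foxa1 with 2.27 ± 0.18 and Foxa2 with 1.05 ± 0.13, which belong to the floor plate and the dopaminergic precursors it gives. Lower were Pou4f1, a factor of red nucleus and tectal neurons, with -1.68 ± 0.11, Tal2, a factor of midbrain GABA neurons, with -1.44 ± 0.14, Pax3, a dorsal factor detected on no knockdown array, at least 1.46-fold, and Lhx1 with -0.62 ± 0.20. At the neuronal stage 2 of 15 were called higher, Foxa1 and Lmx1a, and 10 lower, where 13.9% and 13.5% of all tested probes were, with a median of -1.21 (-1.10 with bounds) against 0.014 over all tested probes. Lhx1 with -3.33 ± 0.20 and Mab21l2 with -2.54 ± 0.11 were among the lower ones, as was Lhx5, detected on no knockdown neuronal array and at least 6.04-fold lower. In ES cells limma called none of 8, with 3 at an unadjusted p under 0.05. Of these, 2 also had a limma adjusted p under 0.05 and missed only the 1.5-fold threshold. The methods' t-test called none.

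**Figure D4:**
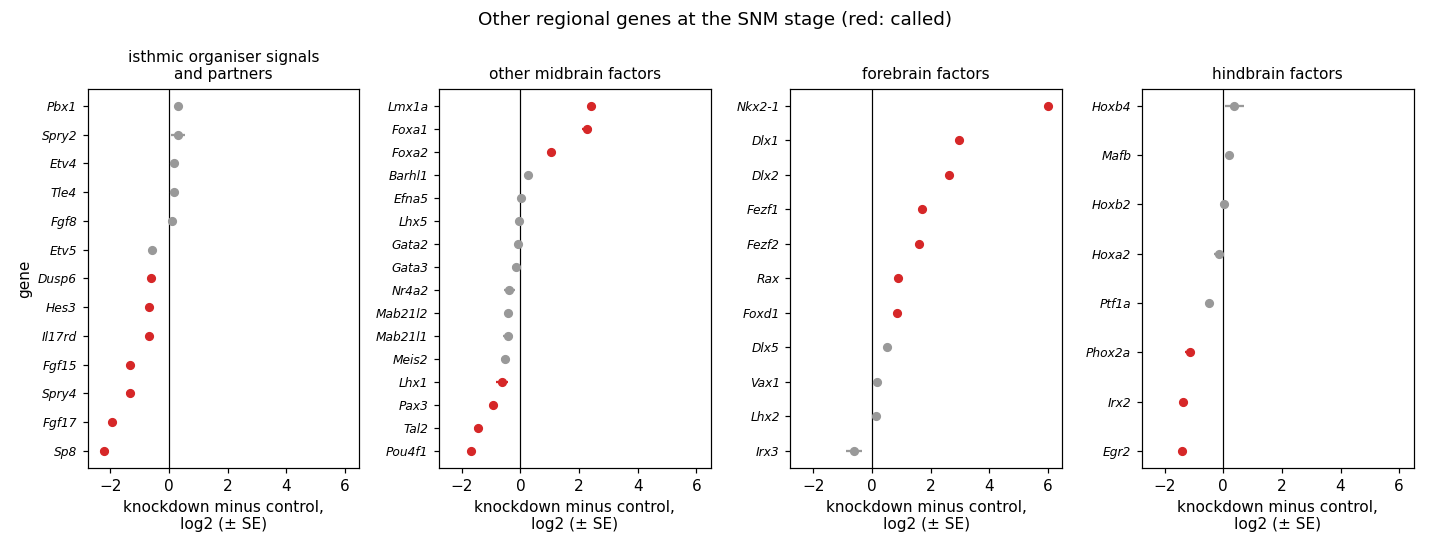
Knockdown minus control log2 signal at the SNM stage (horizontal axis) of the tested genes (vertical axis) of 4 regional lists; points are differences between means of 3 arrays, lines are ± 1 SE and red points are called. All 7 called isthmic genes and all 3 called hindbrain genes lie below 0, and the 7 forebrain genes called higher reach up to 6.01 for Nkx2-1; a few tested genes, among them the forebrain gene called lower, are not drawn.

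The genes whose signals ran most like each factor were found by Pearson's correlation over the 18 arrays. The search covered 12866 probes that were detected and moved by at least 1 log2 unit, less those of the factor itself. The arrays share 6 RNA pools, and the correlations are descriptions. Closest to En1 were Cask (r = 0.997), a synaptic scaffold kinase, Slc35f1 (0.993) and the protocadherin Pcdhb3 (0.990). Closest to En2 were Ccnd1 (0.958), which encodes cyclin D1, AY761185 (0.951) and Figf (0.935), a vascular growth factor. Closest to Gbx2 were Col9a3 (0.990), a collagen chain, Cbx7 (0.986), a Polycomb subunit, and D14Ertd668e (0.986). Otx1 ran most like Rnase1 (0.984), LOC100047738 (0.981) and Msx1 (0.979), a homeodomain factor that is also active in dopaminergic precursors; Msx1 signals averaged 6.43 in control and 7.92 in knockdown SNM cells. Otx2 ran most like Npm3-ps1 and Npm3 (both 0.974), a pseudogene and its parent that probes may not tell apart, and Hist1h2af (0.972). Pax8 ran most like E230011D01Rik (0.958), Fhod3 (0.956), a sarcomere formin, and Dapk2 (0.936). No factor among the 8 was among the 3 closest genes of another.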

How the data were processed

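RNA pooled from replicate cultures was hybridised to Illumina MouseWG-6 arrays, 3 for each of 6 conditions. The deposited table holds the bead intensity of each probe before normalization, with a detection p-value that the authors' Illumina software gave beside it. Gene symbols came from the deposited probe annotation; 72 value columns of that table, which no label ties to a sample, were not used. From the intensities, limma 3.58.1 in R 4.3.3 computed normalized log2 signals by neqc, which estimates the background from the detection p-values, adds an offset of 16 and equalises quantiles. All 18 arrays entered 1 model with 6 condition means. Probes detected at p under 0.05 on all 3 arrays of at least 1 compared condition were tested and adjusted together by Benjamini-Hochberg, and were called at an adjusted p under 0.05 and 1.5-fold. The study's methods used GeneSpring and a t-test, tried here as an alternative.

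The factors and gene lists were chosen with earlier results of these data known. A gene was represented by its brightest probe over all arrays, and the named genes of a list were those of largest change unless stated otherwise. For a probe undetected in a condition, a bound was set against the lowest detected signal. Array numbers are those of the sample titles; the description label gives every array the same replicate number, 3, and so tells none apart. Whether they pair the samples was checked by correlating deviations from condition means. At the SNM stage control and knockdown arrays of the same number correlated at 0.486, 0.108 and 0.489. Knockdown SNM and neuronal arrays correlated at 0.522, 0.139 and 0.511. Control and knockdown neuronal arrays correlated at 0.605, 0.094 and 0.325. In this last comparison and in those whose values are not given here, at least 1 number correlated under 0.1. Number 2 never correlated above 0.185, its value for control SNM against control ES arrays. These values do not settle which arrays are paired, and the main model uses no pairing. Alternatives were other normalizations, filters, thresholds, probe averages, a replicate block and leaving out each array. The code was tested on simulated data. Some genes of the lists entered the counts and medians but are not reported here by name.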

Additional observations from a re-analysis of the deposited data

Results flagged for a closer look

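The knockdown difference itself changed between stages for 5 of the 6 tested factors, by the interaction in the limma model. Because the genes were chosen for their differences at the later stages, of which these changes are made, the values are descriptions and test nothing. From the ES to the SNM stage the difference, knockdown minus control, changed by -0.90 for En1, -2.65 for En2, -0.90 for Pax8, 1.43 for Otx1 and -2.17 for Gbx2 on the log2 scale. From the SNM to the neuronal stage it changed by 1.13 for En1, 2.49 for En2, -0.83 for Pax8, -0.83 for Otx1 and 1.66 for Gbx2. For En1, En2, Gbx2 and Otx1 the later change ran against the earlier one, while for Pax8 both ran the same way; the knockdown Pax8 signal at the neuronal stage was undetected and its change is read against a background level.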

How the results depend on the processing

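The number of factors called between knockdown and control neuronal cells, 4 in the analysis above, was 2 with quantile normalization without background correction, 2 with 75th percentile scaling without background correction, 2 with an offset of 50 and 1 at a threshold of 2-fold. Otx1 and Gbx2 lost their calls there because they lay just past 1.5-fold: their differences were 0.38 and -0.55, 0.44 and -0.52, and 0.47 and -0.58 under the first 3 settings. The Pax8 difference at the SNM stage shrank to -0.37, -0.50 and -0.46 under the same settings and to -0.37 over the mean of its 3 probes, and was no longer called. The Pax8 rise from SNM to neuronal stage in control cells lost its call at 0.34, 0.42 and 0.45 under those settings, at 0.24 over the mean of probes and at a threshold of 2-fold, and its fall from ES to SNM in knockdown cells at -0.50 with quantile normalization without background correction and at -0.46 over the mean of probes. Without scaling the En2 rise from ES to SNM in knockdown cells was 0.68 and called, and the Gbx2 fall from SNM to neuronal stage in control cells was called at -0.61, as it was at -0.60 with 75th percentile scaling, which also called Otx2 from ES to SNM in knockdown cells at -0.61. The methods' t-test after Benjamini-Hochberg adjustment lost Otx2 at the neuronal stage. Leaving out 1 array at a time gave 0 called factors between knockdown and control ES cells, 5 in SNM cells, 3 to 4 in neuronal cells, 4 and 4 from ES to SNM in control and knockdown cells, and 4 to 5 and 5 from SNM to neuronal stage. With the array number as a replicate block, the counts stayed at 5 between knockdown and control SNM cells and at 5 from SNM to neuronal stage in knockdown cells. No other count changed (0, 4, 4, 4 and 4).

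Signs turned only for differences that were not called. They were Otx1 in ES cells (-0.038 with 75th percentile scaling, and -0.062 to 0.11 leaving out 1 array at a time) and Pax8 in ES cells (0.00021 over the mean of probes, and -0.11 to 0.016 leaving out 1 array at a time). From ES to SNM in control cells Otx2 was 0.077 and Pax8 0.0066 without scaling, and Otx2 ran from -0.18 to 0.081 leaving out 1 array at a time, above 0 without the first control ES array (0.029) or the first control SNM array. Otx2 between knockdown and control SNM cells ran from -0.27 to 0.0018 leaving out 1 array at a time, the latter without the first knockdown SNM array. Of 41 differences tested, 26 were called; over all alternatives 733 values kept their sign and call, 24 lost a call, 11 gained one and 10 turned sign. Without scaling, the median of all tested probes from ES to SNM moved from -0.082 to 0.19 in control and from -0.11 to 0.12 in knockdown cells, and the share of calls that were higher from 48.4% to 68.4% and from 46.1% to 60%. In ES cells that share was 30.6%, and 55.6% without scaling. Dim probes, Pax8 above all, limit what these arrays can show.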
